A study of Mus musculus with 9 samples.

Results

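The genes described here are the lysosomal cathepsins, the lysosome-associated membrane proteins Lamp1 and Lamp2, and the V-ATPase genes that are not restricted to acid-secreting cells, measured by RNA sequencing of sorted mouse kidney cells. Genes were taken by name (Cts followed by 1 letter, Lamp1, Lamp2, Atp6v0, Atp6v1 and Atp6ap) where the counts of the 9 libraries summed to at least 100. Atp6v1b1, Atp6v0d2, Atp6v1g3, Atp6v1c2 and Atp6v0a4, the subunits associated with intercalated cells, were left out. This gave 32 of 55385 genes, namely 11 cathepsins, 2 LAMPs and 19 V-ATPase genes, among them the accessory genes Atp6ap1 and Atp6ap2 and the processed pseudogene Atp6v0c-ps2. A further 11 genes matched the names with a sum under 100, and 7 of these had no count. Just inside the minimum were Atp6v0c-ps2 with 129 counts and Ctsk with 133, and just outside it was Ctse with 74. All 32 genes passed the filter on low counts and were tested.

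The 3 groups had 3 biological replicates each. Uninjured proximal tubule cells came from Slc34a1IRES-CreERT2/+:R26RtdT/+ mice given tamoxifen. Cells that had activated Sox9 by 48 h after bilateral ischemia reperfusion injury came from Sox9IRES-CreERT2/+:R26RtdT/+ mice given tamoxifen when the injury was made. Cells that still expressed Sox9 at day 14 (d14) came from injured mice of that second genotype, given tamoxifen on days 10 and 12. All mice were males of 9 to 12 weeks and 25 to 30 g, and tdTomato-positive cells were sorted from dissociated cortex and outer medulla. Slc34a1 encodes the apical sodium-phosphate cotransporter of proximal tubules, whereas a Sox9 driver marks any cell that expresses Sox9 while tamoxifen is present. Driver, injury and tamoxifen schedule therefore changed together between the uninjured group and the others and cannot be told apart. The labels do not say whether a replicate was 1 mouse or a pool, and the p-values measure the spread between these libraries.

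Lysosomes break down material delivered by endocytosis and autophagy, and proximal tubule cells, which take up filtered protein, are rich in them. Cathepsins are their proteases: Ctsd is an aspartic protease, Ctsa a serine carboxypeptidase, and Ctsb, Ctsc, Ctsf, Ctsh, Ctsk, Ctsl, Ctso, Ctss and Ctsz are papain-like cysteine proteases. Lamp1 and Lamp2 are heavily glycosylated proteins of the lysosomal membrane. The V-ATPase pumps protons into the lumen: its V1 sector hydrolyses ATP in the cytosol, its V0 sector carries protons through the membrane, and several subunits exist as isoforms encoded by separate genes.

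Library totals ran from 8036054 counts (48 h replicate 2) to 51631204 counts (uninjured replicate 1). The trimmed mean of M-values (TMM) scaling factors were 0.846 to 0.902 in uninjured libraries, 0.848 to 0.912 at 48 h and 1.21 to 1.48 at d14. Scaled by library totals alone, the 15519 genes tested had a median log2 fold change of 0.63 for d14 against uninjured and 0.63 for d14 against 48 h, compared with 0.06 and 0.05 after TMM. Directions at d14 are therefore given on the TMM scale, that is, nearly relative to the median gene. Calls that ended without TMM are named beside their values. Calls gained without TMM enter the counts given without it, and only some are named. The 14 proximal tubule markers, led by Slc34a1 and Lrp2, summed to 23563 ± 1258 CPM (counts scaled to a common library size; mean ± SD, n = 3 here and below) in the uninjured group. They summed to 10452 ± 3637 at 48 h and to 4750 ± 734 at d14. The 6 thick ascending limb markers summed to 287 ± 51.2, 886 ± 97.5 and 4667 ± 1433 CPM, the 7 principal cell markers to 72.2 ± 11.3, 352 ± 29.8 and 615 ± 122 CPM, and the 10 intercalated cell markers to 26.6 ± 6.76, 107 ± 13.8 and 253 ± 8.24 CPM. The 16 macrophage markers summed to 34.6 to 46 CPM in uninjured libraries, to 224, 154 and 486 CPM at 48 h and to 132, 171 and 75.6 CPM at d14. Of the 16 macrophage markers 9 were called higher at 48 h and 7 at d14 than in uninjured cells, and of the 10 intercalated cell markers 6 and 9, beside 17.4% and 25.1% of all genes tested. The 8 neutrophil markers summed to 5.38 ± 2.58, 232 ± 117 and 4.8 ± 1.32 CPM. None of these markers was at 0 in every library. The 48 h replicate 1 library stood apart, with 522 CPM of 8 endothelial markers against 57.3 and 105 in the other 48 h libraries. In sorted bulk samples, fewer cells of a type and less RNA per cell cannot be told apart. The part of these cell type differences in the results below was not tested.

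Compared per kilobase of exon, Lamp1 was the most abundant cathepsin or LAMP transcript in uninjured cells, at 392 ± 2.74 CPM per kb. Ctsd followed at 190 ± 7.75 and Ctsz at 123 ± 8.07 CPM per kb. Ctsb, Lamp2, Ctsa and Ctsl lay close together, at 86 ± 4.8, 77.1 ± 4.88, 76 ± 3.94 and 75.9 ± 10.2 CPM per kb, and the last 3 did not differ beyond their spread. Ctsh was at 34 ± 2.88 CPM per kb and Ctsf at 9.39 ± 0.245, while Ctss, Ctso, Ctsc and Ctsk were each below 3 CPM per kb. At d14 Ctsd led with 655 ± 174 CPM per kb, ahead of Lamp1 with 226 ± 5.86. Length here was the union of all annotated exons, not that of the transcripts expressed, and the order within a set depends on it. By reads, without dividing by length, Ctsb, Ctsl and Ctsd made up 23.5, 22.2 and 20.1% of the cathepsin sum in uninjured cells. Ctsz made up 8.01%. Among V-ATPase genes in uninjured cells, Atp6v0c (143 ± 2.28 CPM per kb), which encodes the proteolipid of the membrane ring, and Atp6v1g1 (140 ± 11.4 CPM per kb), a peripheral stalk subunit, were highest and did not differ beyond their spread. Atp6v1g2 was lowest of the protein-coding V-ATPase genes, at 0.842 ± 0.204 CPM per kb.

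The heat map of members by library shows the pattern that the following paragraphs take in turn: the members did not move as 1 block.

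**Figure D1:**
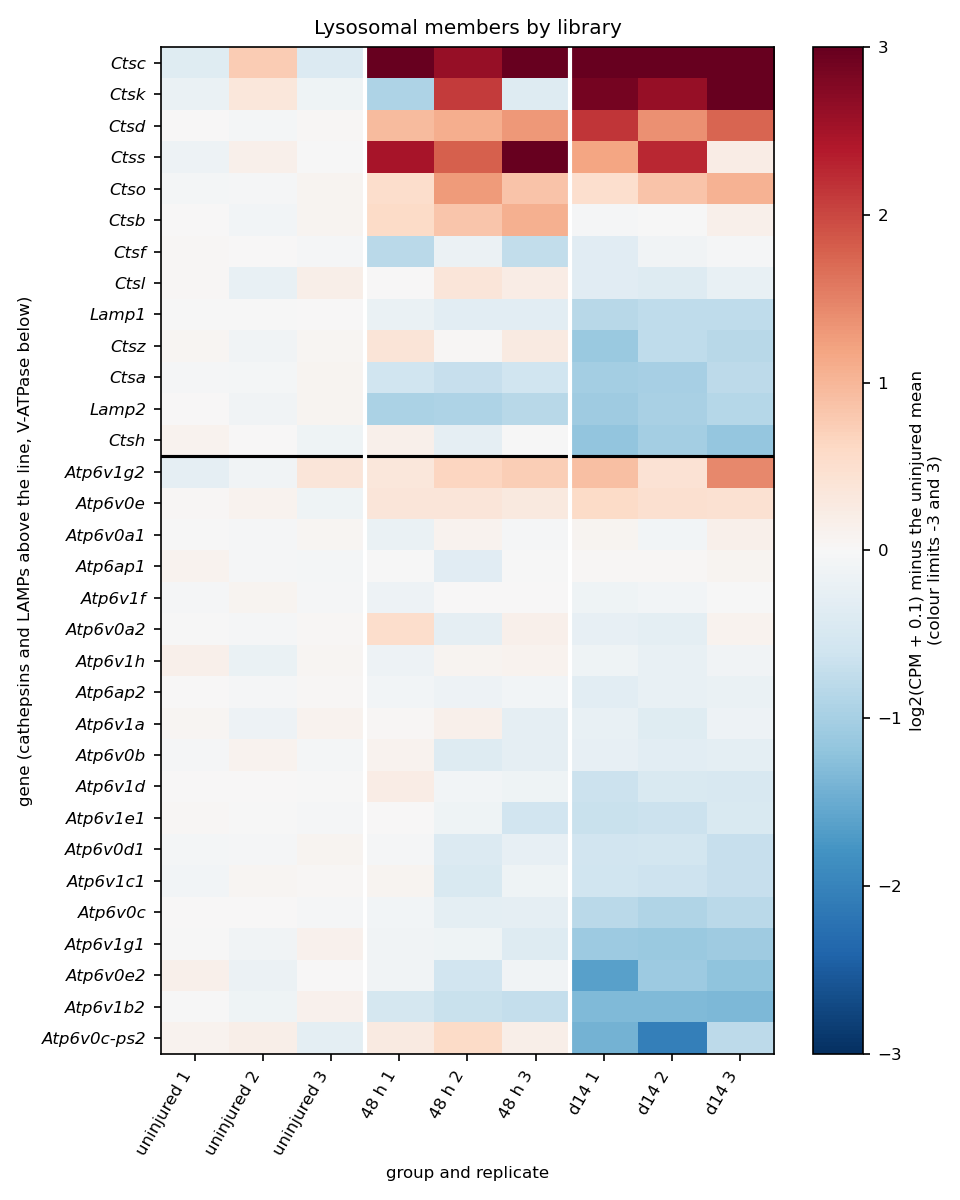
Each row is a member, each column a library, and colour is log2(CPM + 0.1) minus the uninjured mean of that gene, with cathepsins and LAMPs above the line and V-ATPase genes below. Ctsc, Ctsk and Ctsd lie at the top with red d14 columns, while most V-ATPase rows are pale at 48 h. On the TMM scale 8 of the 19 V-ATPase genes were called lower at d14, with d14 columns on the blue side. The median log2 fold change of the 19 at d14 was -0.29.

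The promoters of some members hold a sequence feature that the choice of genes did not use. CACGTG, the E-box core that the lysosomal regulators TFEB and TFE3 are known to bind, was searched in RefSeq promoters (GRCm38.p6, 250 bases before to 50 bases after the start). An entry was found for 24 of the 32 members. Ctsb, Ctsh, Atp6v0a2, Atp6v0c-ps2, Atp6v1b2, Atp6v1c1, Atp6v1g1 and Atp6v1h had none. CACGTG, which reads the same on both strands, was present in 9 of the 24 (37.5%), compared with 7.15% of all 32851 promoters and 8.09% of 27025 gene symbols. The 9 were Ctsa, Ctsd, Ctsf, Ctsl and Lamp1 of 11 cathepsin and LAMP promoters and Atp6v0b, Atp6v0d1, Atp6v0e and Atp6v1a of 13 V-ATPase promoters. The longer TCACGTGA, also a palindrome and containing CACGTG, was present in 5 of 24 (20.8%), compared with 0.974% of all promoters and 1.12% of gene symbols. The 10-base palindromic form of the CLEAR element, which contains both shorter motifs, was present in 0 of 24, in 0.326% of all promoters and in 0.37% of gene symbols. The 250 bases upstream of the start are shown for the 5 members with CACGTG flanked by a 5′ T or a 3′ A upstream of the start, with each CACGTG in capitals. They are shown because genes with this feature moved in different ways below: Ctsd rose, Ctsa and Lamp1 fell at d14, and Atp6v0b and Atp6v1a were not called in any comparison with TMM.
Ctsd (chr7:142387828-142388077, minus strand): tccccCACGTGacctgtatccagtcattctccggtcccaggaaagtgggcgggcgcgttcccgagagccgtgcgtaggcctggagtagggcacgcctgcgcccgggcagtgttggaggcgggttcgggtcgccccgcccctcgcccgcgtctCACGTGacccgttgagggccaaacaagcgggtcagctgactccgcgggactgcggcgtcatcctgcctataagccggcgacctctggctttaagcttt
Ctsa (chr2:164833523-164833772, plus strand): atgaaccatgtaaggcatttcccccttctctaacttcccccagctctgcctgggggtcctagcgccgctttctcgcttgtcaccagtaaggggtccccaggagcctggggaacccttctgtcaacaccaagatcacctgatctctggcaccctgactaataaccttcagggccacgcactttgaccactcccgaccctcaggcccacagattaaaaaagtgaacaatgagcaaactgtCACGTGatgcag
Lamp1 (chr8:13158911-13159160, plus strand): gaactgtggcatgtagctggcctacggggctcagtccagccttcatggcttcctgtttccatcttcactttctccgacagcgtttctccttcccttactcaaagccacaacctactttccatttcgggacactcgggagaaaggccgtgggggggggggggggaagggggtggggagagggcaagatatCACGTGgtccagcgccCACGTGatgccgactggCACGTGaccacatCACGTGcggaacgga
Atp6v0b (chr4:117887330-117887579, minus strand): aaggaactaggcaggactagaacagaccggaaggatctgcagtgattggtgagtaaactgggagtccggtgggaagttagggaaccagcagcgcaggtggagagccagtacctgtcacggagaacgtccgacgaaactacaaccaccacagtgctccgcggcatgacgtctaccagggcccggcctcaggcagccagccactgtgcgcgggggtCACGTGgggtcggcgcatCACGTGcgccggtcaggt
Atp6v1a (chr16:44139260-44139509, minus strand): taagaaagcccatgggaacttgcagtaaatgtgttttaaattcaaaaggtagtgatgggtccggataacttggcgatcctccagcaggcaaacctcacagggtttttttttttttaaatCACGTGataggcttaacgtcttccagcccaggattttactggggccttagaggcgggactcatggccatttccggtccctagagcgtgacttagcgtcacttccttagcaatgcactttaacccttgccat
Ctsd has 2 matches, at bases -245 and -98 counted from the transcription start to the first base of the motif, and Lamp1 has 4, at -61, -45, -28 and -15. The start used for these windows is that of the RefSeq entry. In the GENCODE annotation the Ctsa and Atp6v1a windows lie within the gene, as does most of the Ctsd window. A match describes the letters of the window and is not evidence of binding.

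At 48 h the cathepsins diverged while the V-ATPase genes stayed near uninjured levels. Of 13 cathepsins and LAMPs, 5 rose (Ctsb, Ctsc, Ctsd, Ctso, Ctss) and 3 fell (Ctsa, Ctsf, Lamp2), by edgeR's quasi-likelihood test at a Benjamini-Hochberg adjusted p under 0.05 over all genes tested. In that comparison 17.4% of all genes tested were called higher and 11.7% lower. Scaled by totals without mitochondrial genes, the counts were 7 and 2. Of 19 V-ATPase genes, 1 rose (Atp6v0e) and 1 fell (Atp6v1b2). The median log2 fold change was 0.23 for cathepsins and LAMPs and -0.10 for V-ATPase genes, against 0.02 over the whole table. The libraries of the groups did not overlap for 7 members that were higher and 8 that were lower, beside 21.5% and 20.8% of all genes. This and every overlap of CPM below was judged on the TMM scale.

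At d14 against uninjured cells, genes of both sets were called in both directions. The median log2 fold change with TMM was -0.16 for cathepsins and LAMPs and -0.29 for V-ATPase genes, against 0.06 over the whole table. Of the 13 cathepsins and LAMPs, 4 were higher than in uninjured cells (Ctsc, Ctsd, Ctsk, Ctso) and 5 lower (Ctsa, Ctsh, Ctsz, Lamp1, Lamp2), where 25.1% of all genes were called higher and 20.7% lower. Of the 19 V-ATPase genes, 8 were lower and 1 (Atp6v0e) was higher. Without TMM the cathepsin and LAMP counts were 6 higher and 4 lower, and the V-ATPase counts became 3 lower and 7 higher, beside 9.13% and 47.1% of all genes, so that the direction of this set depended on the scaling. On TMM-scaled CPM, groups did not overlap for 5 higher and 6 lower cathepsins and LAMPs, beside 34.4% and 28.9% of all genes. The same held for 2 higher and 12 lower V-ATPase genes, a count not made without TMM. Of those 12, Atp6v0e2, Atp6v1b2 and Atp6v1g1 were called lower without TMM, and Atp6ap2 was called higher (0.32, adjusted p = 0.0344 by edgeR). Relative to the median gene the V-ATPase median was -0.35, a difference that scaling cannot alter and that therefore does not bear on the choice between scalings. Between the injured groups, which share the Cre driver, 1 cathepsin or LAMP was higher at d14 than at 48 h (Ctsd) and 5 were lower (Ctsb, Ctsh, Ctsl, Ctsz, Lamp1), where 16.8% of all genes were called higher and 16.3% lower. These counts were 5 and 2 without TMM. In that comparison 7 V-ATPase genes were lower and 0 higher with TMM, and 1 lower and 7 higher without it, beside 6.02% and 43.9% of all genes. Of the 7 V-ATPase genes lower at d14 than at 48 h, only Atp6v0e2 was still called without TMM (-0.50, adjusted p = 0.0268). Without TMM, Atp6v0c was at -0.04 (adjusted p = 0.817), Atp6v1b2 at -0.12 (adjusted p = 0.48) and Atp6v1g1 at -0.30 (adjusted p = 0.0714). Atp6v0d1, Atp6v1c1 and Atp6v1d were then above 0. On TMM-scaled CPM, groups did not overlap for 4 members higher and 15 lower at d14 than at 48 h, beside 26.7% and 20.6% of all genes. The count of 0 higher by edgeR with TMM was also 0 at an unadjusted p under 0.05, and 0 by DESeq2 and by limma voom.

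**Figure D2:**
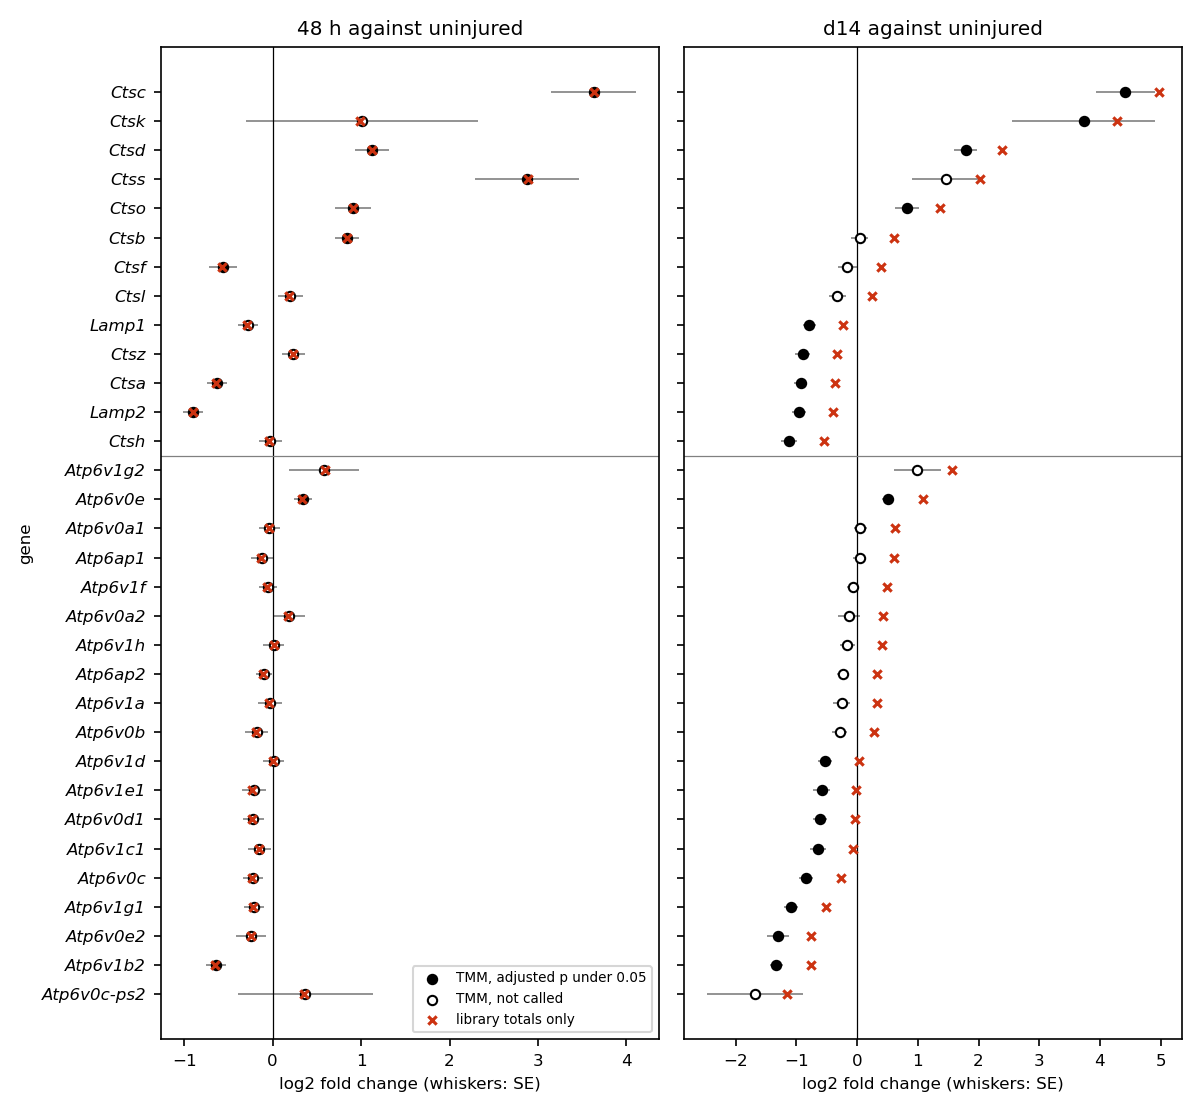
Log2 fold change of each member against uninjured cells at 48 h (left) and d14 (right), with circles for the TMM-scaled fit (filled where called, whiskers of 1 SE) and crosses for scaling by library totals alone. The circles and crosses coincide at 48 h, and at d14 every cross lies to the right of its circle, past 0 for Atp6v1d among the called genes.

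Ctsd, the main aspartic protease of lysosomes, had 452, 425 and 460 CPM in uninjured libraries, 855, 953 and 1094 CPM at 48 h and 1965, 1151 and 1503 CPM at d14. The 3 groups did not overlap, and d14 replicate 1 was the highest library. Ctsd (ENSMUSG00000007891.16) lies at chr7:142375911-142388038 on the minus strand of GRCm38 in the GENCODE annotation. It rose by a log2 fold change of 1.12 ± 0.19 (SE here and below for log2 fold changes; adjusted p = 0.00125) at 48 h and 1.79 ± 0.19 (adjusted p = 1.87e-05) at d14, both against the same uninjured libraries. The step from 48 h to d14 (0.67 ± 0.19, adjusted p = 0.0176) was not called without 48 h replicate 1 (0.59, adjusted p = 0.0509), without d14 replicate 1 (0.46, adjusted p = 0.063) or in a fit of these 2 groups only (0.63, adjusted p = 0.0624).

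Ctsb, an abundant cysteine protease with both endopeptidase and carboxypeptidase activity, followed another course. Its levels were 526, 489 and 546 CPM in uninjured libraries, 772, 932 and 1091 CPM at 48 h and 510, 516 and 580 CPM at d14. The 48 h libraries were above all others, and the uninjured and d14 libraries overlapped. Ctsb rose at 48 h by 0.84 ± 0.14 (adjusted p = 0.00139) and was lower at d14 than at 48 h by -0.80 ± 0.14 (adjusted p = 0.00185). That second call was lost without TMM (-0.24, adjusted p = 0.238), and Ctsb was then called higher at d14 than in uninjured cells (0.60, adjusted p = 0.00637, against 0.04 ± 0.14 and 0.845 with TMM).

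Ctsc (dipeptidyl peptidase I, which activates serine proteases of myeloid cells) had 2.04, 4.56 and 1.98 CPM in uninjured libraries, 30.8, 16.8 and 55.1 CPM at 48 h and 64.6, 51 and 64.4 CPM at d14. All injured libraries were above all uninjured ones, and 48 h replicate 3 overlapped the d14 range. It had the largest fold change of the members, 3.63 ± 0.48 (adjusted p = 7.24e-04) at 48 h and 4.42 ± 0.49 (adjusted p = 9.06e-05) at d14. Ctss, a cysteine protease known for antigen presentation, had 3.5, 4.32 and 3.88 CPM in uninjured libraries, 22.1, 13.7 and 49.1 CPM at 48 h and 9.01, 19 and 4.57 CPM at d14. It rose at 48 h by 2.88 ± 0.59 (adjusted p = 0.00686), and its d14 difference of 1.47 ± 0.57 was not called (adjusted p = 0.0623). Without TMM that d14 difference was called (2.03, adjusted p = 0.0183 by edgeR). Within the 48 h group and within the d14 group, the order of the libraries in Ctss was that of the summed macrophage markers given above, and at 48 h this held for Ctsc too. At d14 it did not hold for Ctsc: replicate 2 had the highest macrophage sum (171 CPM) and the lowest Ctsc (51 CPM). From 48 h to d14 the mean macrophage sum went from 288 to 126 CPM and mean Ctsc from 34.2 to 60 CPM. That Ctsc difference was not called with TMM and was called without it (1.35, adjusted p = 0.0428 by edgeR). At d14, where Ctsc was highest, the summed neutrophil markers were at 4.8 ± 1.32 CPM, near the uninjured level. The 9 dendritic cell markers went the other way. Their d14 sum of 304 ± 153 CPM exceeded both the uninjured sum (86.6 ± 29.6) and the 48 h sum (60.6 ± 50.8). Of the 5 tested, 1 was called higher at d14 than in the uninjured group with TMM, and 2 without it. Among d14 libraries their sum was highest in replicate 2 (458 CPM), where Ctsc was lowest and Ctss highest. The part of macrophage, neutrophil or dendritic cell RNA in the Ctsc and Ctss levels was not tested.

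Ctso, a widely expressed cysteine protease, rose from 14.3 ± 0.749 CPM to 27.2 ± 7.28 at 48 h and 25.3 ± 4.59 at d14, with log2 fold changes of 0.91 ± 0.20 (adjusted p = 0.00603) and 0.82 ± 0.20 (adjusted p = 0.0053). Ctsk, the collagen-degrading protease of osteoclasts, was close to the detection limit. It had 3, 4 and 3 counts in the uninjured libraries, 0, 5 and 1 at 48 h, where a count of 0 allows up to 3, and 37, 27 and 53 at d14. The summed d14 level was 14.7 times the uninjured one, with an exact 95% interval of 7.73 to 31.5 that covers counting error only. Ctsk was called higher at d14 (adjusted p = 0.0226), and the call was lost without any 1 uninjured library or without d14 replicate 1 or 3 (adjusted p = 0.057 to 0.0945). The 7 fibroblast markers, which include Col1a1, had a summed level of 3.64 ± 1.56 CPM in the uninjured group and of 9.14 ± 3.18 CPM at d14, and their part in the Ctsk level was not tested.

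Ctsa, which also protects the hydrolases Neu1 and Glb1 in a complex, had 350, 345 and 379 CPM in uninjured libraries, 236, 221 and 237 CPM at 48 h and 176, 178 and 209 CPM at d14. All injured libraries were below all uninjured ones. It fell by 0.63 on the log2 scale at 48 h (SE 0.11, adjusted p = 0.00178) and by 0.93 at d14 (SE 0.11, adjusted p = 4.68e-05). Ctsf was lower at 48 h by -0.56 ± 0.16 (adjusted p = 0.0231), from 47.3 ± 1.24 to 32.3 ± 8.12 CPM. This call was lost without any 1 uninjured library and without 48 h replicate 1 or 3 (adjusted p = 0.0521 to 0.0835).

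Ctsh and Ctsz, both exopeptidases, were near their uninjured levels at 48 h and lower at d14. Ctsh had 165, 155 and 139 CPM in uninjured libraries, 170, 126 and 152 CPM at 48 h and 67.4, 75.8 and 68.6 CPM at d14, a fall by 1.12 on the log2 scale from uninjured cells (SE 0.13, adjusted p = 3.79e-05). Ctsz had 185, 164 and 183 CPM in uninjured libraries, 230, 182 and 213 CPM at 48 h and 81.8, 104 and 99.8 CPM at d14, a fall by 0.90 (SE 0.13, adjusted p = 1.98e-04). For both genes the d14 libraries were below all others, and both calls held without TMM (-0.55, adjusted p = 0.00635, and -0.34, adjusted p = 0.0358). Ctsl, a major endopeptidase, had 501, 422 and 554 CPM, then 493, 633 and 568 CPM, then 385, 377 and 418 CPM in the same order. Ctsl was lower at d14 than at 48 h by -0.52 ± 0.14 (adjusted p = 0.0151), a call lost without d14 replicate 2 (-0.48, adjusted p = 0.0601) and changed in sign without TMM (0.05, adjusted p = 0.807).

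Lamp2, whose isoform LAMP-2A serves chaperone-mediated autophagy, had 744, 686 and 778 CPM in uninjured libraries, 383, 388 and 416 CPM at 48 h and 351, 376 and 408 CPM at d14. It fell by 0.90 on the log2 scale at 48 h (SE 0.11, adjusted p = 2.37e-04) and by 0.96 at d14 (SE 0.11, adjusted p = 4.48e-05), and the 48 h and d14 libraries overlapped. Lamp1 had 1047, 1041 and 1055 CPM in uninjured libraries, 912, 839 and 836 CPM at 48 h and 587, 614 and 615 CPM at d14, and the 3 groups did not overlap. Its difference was -0.28 ± 0.11 at 48 h (adjusted p = 0.0792) and -0.79 ± 0.11 at d14 (adjusted p = 1.45e-04), which was not called without TMM (-0.23, adjusted p = 0.157). The share of Lamp1 in the summed LAMP level per kb was 83.6 ± 0.78% in the uninjured group, 88.6 ± 0.857% at 48 h and 85.1 ± 0.694% at d14.

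**Figure D3:**
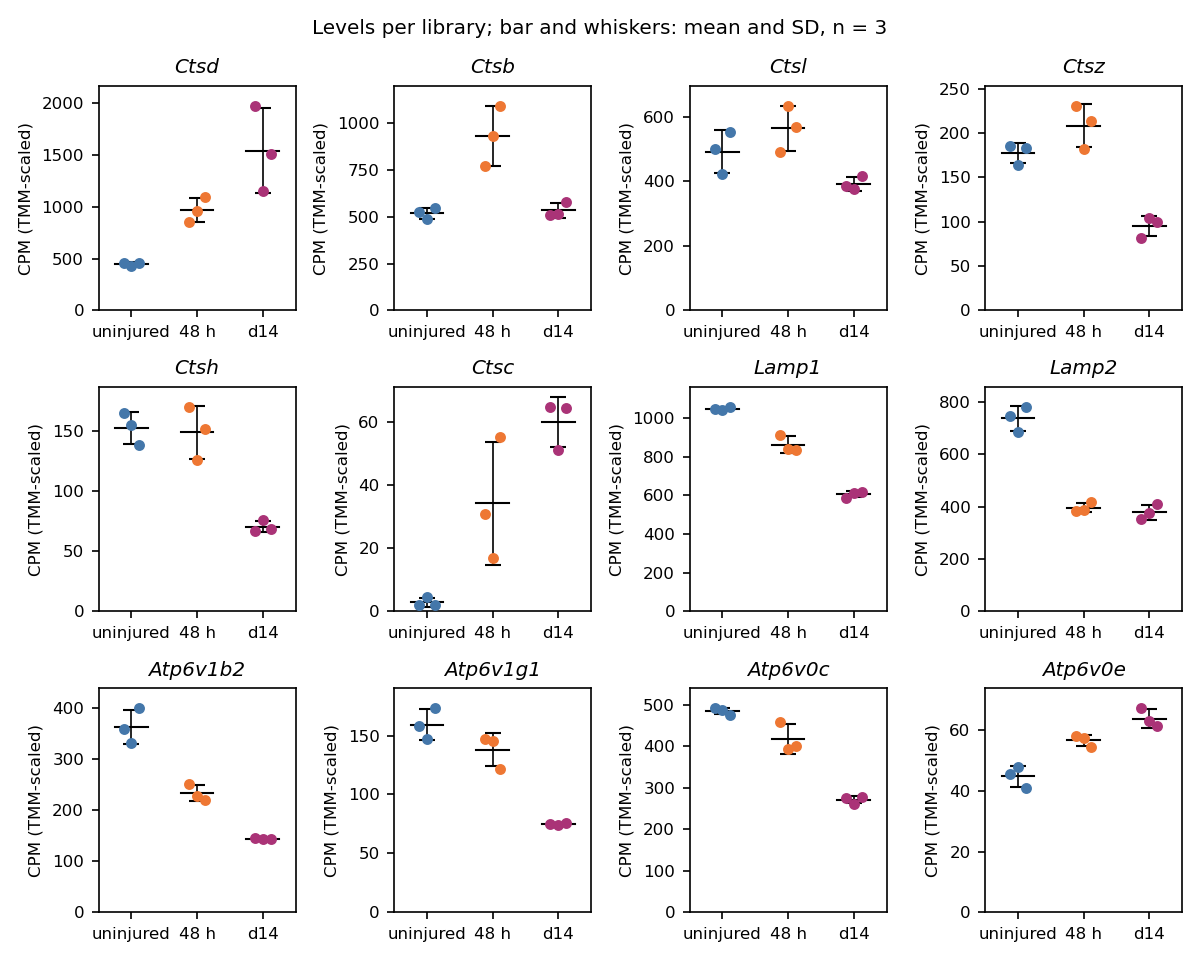
CPM (TMM-scaled) of 12 members in each of the 9 libraries, with the mean (bar) and SD (whiskers) of the 3 libraries of each group. Ctsd is higher in each successive group, Ctsb is highest at 48 h, Ctsh and Ctsz are lowest at d14, and Atp6v1b2 is lower in each successive group.

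The make-up of the cathepsin pool differed between the groups, a comparison made within each library and therefore independent of the scaling. Ctsd made up 31.5, 32.1 and 31.3% of the summed cathepsin level per kb in the uninjured libraries, then 43, 45.7 and 45.6% at 48 h and finally 74.7, 61.4 and 66.7% at d14, without overlap between groups. Ctsa accounted for 12.7 ± 0.456, 5.38 ± 0.498 and 4.23 ± 0.782% in the same order, and Ctsz for 20.5 ± 0.459, 15.9 ± 2.61 and 7.12 ± 1.99%. By reads, without dividing by length, the Ctsd share averaged 20.1, 30.4 and 51.4%. With 3 libraries against 3 an exact two-sided permutation test of such a share cannot give a p below 0.1. Unlike the shares, the summed cathepsin level depends on the scaling. On the TMM scale it was 600 ± 31.7 CPM per kb in the uninjured group, 918 ± 91.7 at 48 h and 958 ± 161 at d14.

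Among the V1 genes of the set, which leaves out the intercalated-type isoforms, Atp6v1b2, the B subunit found in most tissues, had the largest d14 difference. The gene (ENSMUSG00000006273.14) lies at chr8:69088646-69113711 on the plus strand. It had 359, 333 and 400 CPM in uninjured libraries, 251, 229 and 221 CPM at 48 h and 146, 144 and 143 CPM at d14, with no overlap between the 3 groups. It fell by 0.64 on the log2 scale at 48 h (SE 0.11, adjusted p = 0.00154) and by 1.33 at d14 (SE 0.11, adjusted p = 3.28e-06), and by 0.76 at d14 without TMM (adjusted p = 3.33e-04). Atp6v1g1 had 158, 147 and 173 CPM in uninjured libraries, 147, 145 and 122 CPM at 48 h and 75.2, 74 and 75.8 CPM at d14. The d14 libraries were below all others, and the fall from uninjured cells was by 1.09 with TMM (SE 0.11, adjusted p = 1.64e-05) and by 0.52 without it (adjusted p = 0.00453).

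The stalk and connecting subunits Atp6v1c1, Atp6v1d and Atp6v1e1 were lower at d14 with TMM, by -0.64 ± 0.13, -0.53 ± 0.12 and -0.58 ± 0.14 (adjusted p = 0.00209, 0.00305 and 0.00675 by edgeR). None of the 3 was called without TMM, where Atp6v1d was at 0.03 and the others at -0.07 and -0.02. Atp6v1a, the catalytic A subunit, differed by -0.03 ± 0.14 at 48 h and -0.25 ± 0.14 at d14 (adjusted p = 0.909 and 0.165), from 359 ± 33.1 to 353 ± 52.3 and 303 ± 22.1 CPM. Atp6v1f and Atp6v1h were not called in any comparison with TMM either, with log2 fold changes of -0.07 ± 0.10 and -0.16 ± 0.12 at d14. Without TMM both were called higher at d14 (0.49, adjusted p = 0.00614, and 0.41, adjusted p = 0.0335, by edgeR). Atp6v1g2, the G isoform known from neurons, was low, between 1.72 and 5.82 CPM in every library. Its d14 libraries were above all uninjured ones (4.21 ± 1.5 against 2.11 ± 0.512 CPM). That difference was not called with TMM (0.99 ± 0.39, adjusted p = 0.0591) and was called without it (1.56, adjusted p = 0.00662).

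In the V0 sector, Atp6v0c had 491, 488 and 476 CPM in uninjured libraries, 458, 393 and 401 CPM at 48 h and 276, 261 and 278 CPM at d14. It fell by 0.84 at d14 (SE 0.11, adjusted p = 8.26e-05), and was not called without TMM (-0.27, adjusted p = 0.11). Its reads may be shared with the pseudogene Atp6v0c-ps2, which had 73 counts in the uninjured libraries together, 37 at 48 h and 19 at d14 and was not called. Atp6v0d1, the common isoform of the d subunit that links both sectors, was lower at d14 by -0.61 ± 0.11 (adjusted p = 0.0012), and was at -0.04 without TMM. Its fall from 48 h to d14 (-0.39 ± 0.12, adjusted p = 0.0253) was lost without 48 h replicate 1 or any 1 d14 library (adjusted p = 0.0534 to 0.0998). That of Atp6v1c1 (-0.49 ± 0.13, adjusted p = 0.0158) was lost without 48 h replicate 1 or d14 replicate 3 (adjusted p = 0.0557 and 0.0626). Atp6v0b, Atp6v0a1, Atp6v0a2 and the accessory genes Atp6ap1 and Atp6ap2 were not called with TMM in any comparison, with d14 differences of -0.29 to 0.05 and adjusted p from 0.0546 (Atp6ap2) to 0.801 (Atp6ap1).

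The e subunits, small membrane proteins of V0, moved in opposite directions. Atp6v0e had 45.4, 47.8 and 41 CPM in uninjured libraries, 57.9, 57.2 and 54.4 CPM at 48 h and 67, 62.7 and 61.2 CPM at d14, with no overlap between the groups. It rose by 0.34 ± 0.10 at 48 h (adjusted p = 0.0287) and by 0.51 ± 0.10 at d14 (adjusted p = 0.00163). The 48 h call was lost without uninjured replicate 1 or 3, without 48 h replicate 1 or 3, and without TMM (adjusted p = 0.0508 to 0.124). Atp6v0e2 had 42.8, 34.5 and 39.2 CPM, then 36.1, 25.9 and 35.7 CPM, then 12.4, 18.1 and 16.6 CPM, and fell by 1.30 at d14 with TMM (SE 0.18, adjusted p = 1.10e-04) and by 0.76 without it (adjusted p = 0.00223). Atp6v0e accounted for 40.5, 47.1 and 40.2% of the summed e subunit level per kb in the uninjured libraries. Its share was 50.7, 58.6 and 49.4% at 48 h and 77.6, 68.9 and 70.2% at d14. By reads, without dividing by length, it averaged 53.6, 63.6 and 80.2%.

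Within the B, d, G and C subunits, the general gene held a smaller share in every d14 library than in any uninjured library, and the isoforms associated with intercalated cells a larger one. Atp6v1b1 accounted for 2.05, 2.6 and 2.23% of the summed B subunit level per kb in the uninjured libraries, then 14.7, 17.1 and 18.6% at 48 h and finally 49.7, 51.9 and 60.2% at d14, and Atp6v1b2 for the rest. By reads, without dividing by length, the Atp6v1b1 share averaged 1.9, 14.3 and 49.2%. The summed B level was 70.2 ± 6.4, 52.9 ± 2.21 and 59.6 ± 6.96 CPM per kb in the 3 groups. Atp6v0d1 made up 98.7 ± 0.591, 90.6 ± 3.23 and 70.8 ± 2.76% of the d subunit level, the remainder being Atp6v0d2. The summed d level was 47.1 ± 2.65, 43.8 ± 5.02 and 43.1 ± 0.733 CPM per kb. Atp6v1g1 held 98.8 ± 0.224, 94.3 ± 2.57 and 88.2 ± 2.39% of the G level and Atp6v1c1 97.5 ± 0.191, 93.9 ± 3.04 and 88.1 ± 2.78% of the C level. Here the sums ended lower on the TMM scale, at 75 ± 2.79 against 142 ± 11.8 CPM per kb in uninjured cells for G and at 11.8 ± 0.062 against 16.5 ± 0.884 for C. All summed levels of this paragraph are on that scale and were not computed without TMM. Without TMM the d14 log2 fold change was -0.52 for Atp6v1g1 but -0.07 for Atp6v1c1, so the lower C sum depended on the scaling. Atp6v0a4 held 76.5 ± 1.26, 74 ± 6.04 and 71.4 ± 3% of the summed level of Atp6v0a1, Atp6v0a2 and Atp6v0a4. Of the 5 subunits left out, 4 were called higher at d14 than in uninjured cells, and Atp6v0a4 was not (-0.42 ± 0.19, adjusted p = 0.0889 by edgeR). It was already at 250 ± 25.1 CPM in uninjured cells, where the summed intercalated cell markers were at 26.6 CPM. Tcirg1, which encodes a further a subunit, does not match the names and was not counted. The shares in B, d, G and C moved beside the summed intercalated cell markers (26.6, 107 and 253 CPM), and the part of intercalated cells in them was not tested.

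**Figure D4:**
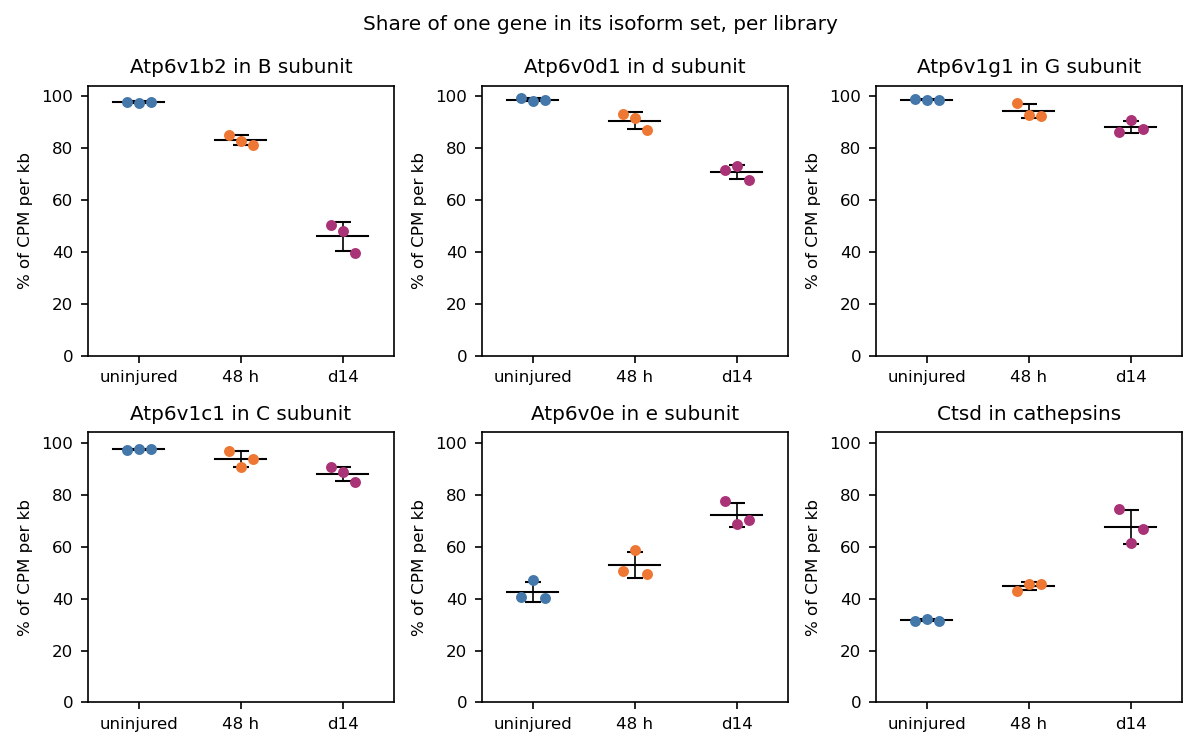
Share (%) of 1 gene in the summed CPM per kb of its isoform set, or of all 11 cathepsins for Ctsd, in each library, with the mean and SD of each group. Atp6v1b2 goes from 97.7% of the B subunit level in uninjured cells to 46.1% at d14. Atp6v0e goes from 42.6% to 72.2% of the e level, and Ctsd from 31.6% to 67.6% of the cathepsin level. By reads, not shown, Atp6v1b2 averaged 50.8% at d14, and Atp6v0e 53.6% in uninjured cells.

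Other genes of the lysosome were compared by lists, whose counts stand beside 17.4% of all genes called higher and 11.7% lower at 48 h, 25.1% and 20.7% at d14, and 47.1% and 9.13% at d14 without TMM. Of 40 acid hydrolases, 4 were higher and 13 lower at 48 h, and 6 higher and 23 lower at d14, with a median log2 fold change of -0.61 at d14 that became 13 higher and 13 lower calls without TMM. Neu1, the sialidase that requires Ctsa, fell from 664 ± 67.9 to 291 ± 47.4 CPM at 48 h and 146 ± 13.9 CPM at d14, by 1.19 (SE 0.15) and 2.19 (SE 0.15, adjusted p = 8.10e-07). Gm2a, an activator of ganglioside breakdown, fell from 354 ± 27 to 97.2 ± 7.86 CPM at d14 (-1.86 ± 0.15, adjusted p = 1.99e-06), and Lipa, the lysosomal acid lipase, from 283 ± 27.2 to 81.7 ± 12.3 CPM (-1.79 ± 0.14, adjusted p = 2.30e-06). Galc, a galactosylceramidase, fell to 47.5 ± 0.502 from 129 ± 3.51 CPM (-1.44 ± 0.11, adjusted p = 1.67e-06). Of 20 genes of lysosomal membrane and export, 4 were higher and 5 lower at 48 h and 5 higher and 8 lower at d14 (12 and 1 without TMM), so the share higher was near that of all genes. Laptm4b, a lysosomal membrane protein, rose from 5.43 ± 2.38 to 22.8 ± 5.43 and 49.2 ± 3.79 CPM (3.19 ± 0.29 at d14, adjusted p = 1.01e-05). Cd63, a tetraspanin of late endosomes, had its highest level at 48 h, with 881 ± 118 CPM against 614 ± 24.8 in uninjured cells and 442 ± 34.6 at d14. It rose by 0.52 ± 0.13 at 48 h (adjusted p = 0.0124, and 0.0527 without uninjured replicate 2) and was lower than in uninjured cells at d14 with TMM (-0.47 ± 0.13, adjusted p = 0.0119), and at 0.09 without it.

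Hydrolases reach the lysosome through mannose 6-phosphate receptors and sortilin. The shares of all genes given above (25.1% higher and 20.7% lower at d14) apply to the following lists too. Of 9 genes of that route, 1 was higher and 1 lower at 48 h, and 2 were higher and 3 lower at d14. Without TMM, edgeR called 5 higher and 0 lower at d14, with 1 lower at an unadjusted p under 0.05. Sort1, which encodes sortilin, had 3.95, 6.28 and 6.5 CPM in uninjured libraries, 45.3, 42.3 and 47.6 CPM at 48 h and 174, 128 and 166 CPM at d14. The 3 groups did not overlap, and Sort1 rose by 3.02 ± 0.20 (adjusted p = 2.35e-06) and 4.81 ± 0.21 (adjusted p = 4.02e-08). Igf2r, the large mannose 6-phosphate receptor, fell by 0.88 at d14 with TMM (SE 0.16, adjusted p = 8.22e-04), from 235 ± 38.1 to 127 ± 5.82 CPM, a call lost without it (-0.31, adjusted p = 0.11). Of 10 genes of V-ATPase assembly and control, 3 were lower at 48 h, and 1 was higher and 5 lower at d14. Without TMM, edgeR called 2 higher and 0 lower at d14, with 1 lower at an unadjusted p under 0.05. Ncoa7 and Oxr1, related TLDc-domain proteins that bind the V-ATPase, differed from uninjured cells at d14 by -0.89 ± 0.11 (adjusted p = 6.91e-05) and 0.92 ± 0.13 (adjusted p = 1.20e-04) with TMM. Without it the Ncoa7 call was lost (-0.32, adjusted p = 0.0572).

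Of 9 inhibitors of cysteine cathepsins only Cst3 and Cstb passed the filter, and both rose. Cstb, the cytosolic inhibitor stefin B, went from 26.6 ± 2.81 to 95.2 ± 26.4 CPM at 48 h (1.84 ± 0.19, adjusted p = 4.80e-05) and 61.3 ± 1.74 CPM at d14 (1.20 ± 0.18, adjusted p = 2.64e-04). Cst3, the secreted cystatin C, went from 66.8 ± 3.22 to 106 ± 14.3 and 123 ± 0.992 CPM (0.88 ± 0.12 at d14, adjusted p = 9.70e-05). Of 18 genes of TFEB and lysosomal mTORC1 signalling, 1 was higher and 8 lower at 48 h, beside 17.4% and 11.7% of all genes. At d14, 3 were higher and 10 lower, beside 25.1% of all genes higher and 20.7% lower. Without TMM the d14 counts were 7 and 3, beside 47.1% and 9.13% of all genes. The 3 higher at d14 were Tfeb (0.97 ± 0.19, adjusted p = 0.00143), Mitf (1.73 ± 0.19, adjusted p = 2.70e-05), both transcription factors of that family, and Rragd (1.37 ± 0.15, adjusted p = 2.39e-05), a Rag GTPase. Tfe3 differed by 0.41 ± 0.16 at d14 (adjusted p = 0.053), and Tfec fell from 12.6 ± 0.88 to 3.91 ± 1.06 CPM (-1.69 ± 0.24, adjusted p = 1.71e-04). Tfeb and Tfe3 were named after their values had been seen.

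**Figure D5:**
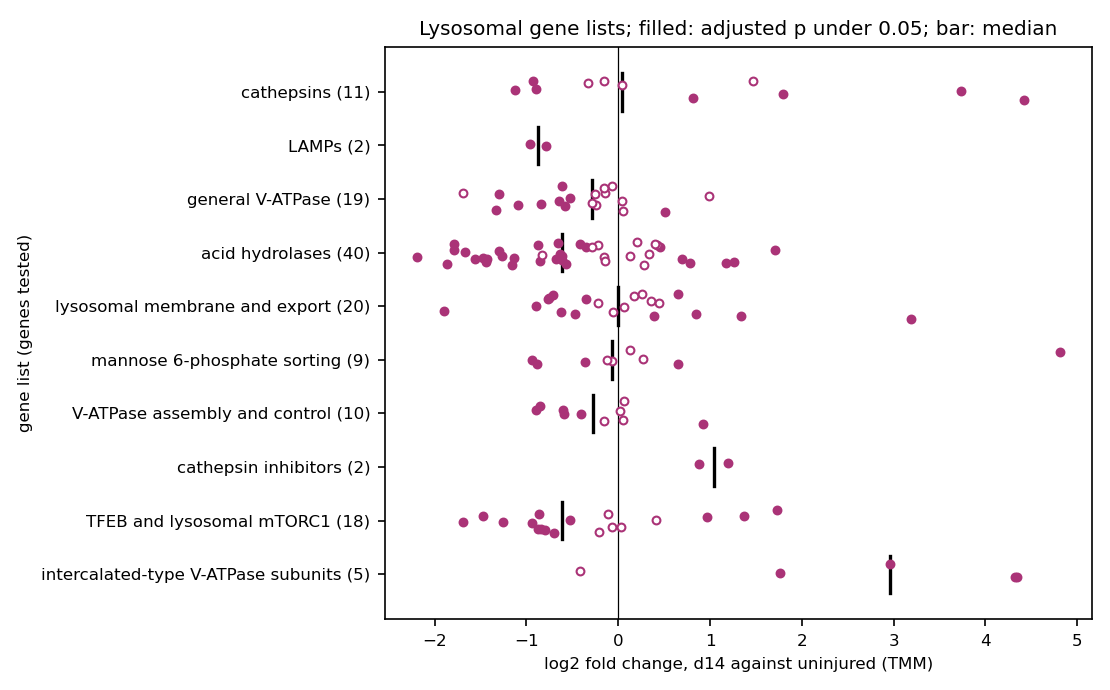
Log2 fold change at d14 against uninjured cells (TMM) of each gene tested in the member sets and the other lysosomal lists, filled where called and with the median of each list as a bar. The medians lie at -0.29 for the general V-ATPase genes, -0.61 for acid hydrolases and 2.96 for the 5 intercalated-type subunits. Of these 5, Atp6v0a4 lies at -0.42 and was not called. The cathepsins spread from -1.12 to 4.42.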

How the data were processed

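RNA of sorted tdTomato-positive kidney cells (9 libraries, 3 groups of 3) was sequenced from poly(A) RNA with a strand-specific kit, per the labels' protocols. The deposited values are expected counts per gene, held as whole numbers. Tools listed in the submitters' processing notes, with no role, were RSEM 1.2.28 and STAR 2.6.1, besides bcl2fastq 2.20, R 3.6.3 and DESeq2 1.26.0. A mouse build (mm10) is listed there too. Annotation release and strand setting: not given in the sources used here. Exon lengths and coordinates came from GENCODE M21 (GRCm38), in which 54487 of 55385 gene IDs had the same version. The 92 spike-in rows had no counts and were not used.

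Counts were filtered with filterByExpr (minimum count 10, minimum total 15), scaled by TMM and fitted in edgeR 4.0.16 (R 4.3.3) with 1 mean per group over all 9 libraries. The quasi-likelihood test was used, with Benjamini-Hochberg adjustment over the 15519 genes tested, and genes were called at an adjusted p under 0.05. The test was also tried on counts simulated from the means and spread of these data. SE is the absolute log2 fold change divided by the square root of F. Levels of different genes were compared as CPM per kilobase of exon (union of annotated exons), with shares by reads given beside some of them. Pairs of replicates differed by more than sampling noise.

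Full statistics were given for called members with the largest change (up to 6 per set, direction and comparison) and the most abundant members. From each list up to 4 called genes with the smallest p were named, and from each marker list up to 2. Members and lists were chosen with earlier results of these data known. Alternatives were RLE, no TMM, no filter, DESeq2 1.42.0, limma 3.58.1 voom with sample weights, fits of 2 groups only, a replicate block and leaving out each library. Upper-quartile scaling and no TMM with mitochondrial genes left out were added after the data had been seen. Counting error alone sets the interval given for Ctsk.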

Additional observations from a re-analysis of the deposited data

Results flagged for a closer look

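For 13 members the effect at d14 differed from the effect at 48 h. The uninjured libraries are common to both effects, so the test of that difference is the comparison of d14 with 48 h (edgeR's quasi-likelihood test, adjusted p under 0.05). Among cathepsins and LAMPs, the difference on the log2 scale was 0.67 for Ctsd and -0.80 for Ctsb, -1.08 for Ctsh, -0.52 for Ctsl, -1.13 for Ctsz and -0.51 for Lamp1. Among V-ATPase genes it was -0.62 for Atp6v0c, -0.39 for Atp6v0d1, -1.06 for Atp6v0e2, -0.69 for Atp6v1b2, -0.49 for Atp6v1c1, -0.54 for Atp6v1d and -0.88 for Atp6v1g1. In all 13 the 48 h and d14 libraries did not overlap on TMM-scaled CPM. Ctsh, Ctsz and Atp6v0e2 kept this call under all 18 alternatives, and the other 10 lost it under at least 1.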

How the results depend on the processing

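Of 10 members called at 48 h, 8 kept their call under all 18 alternatives (Atp6v0e and Ctsf did not). Of 18 called at d14 against uninjured, 11 did, and 3 of 13 at d14 against 48 h. Leaving out TMM gave 0 V-ATPase genes higher at 48 h in place of 1, 7 higher and 3 lower at d14 in place of 1 and 8, and 7 higher and 1 lower at d14 against 48 h in place of 0 and 7. It gave 5 cathepsins and LAMPs higher and 2 lower at d14 against 48 h, in place of 1 and 5. With mitochondrial genes also left out, the V-ATPase counts were 5 higher and 4 lower at d14 and 2 and 4 against 48 h, and the cathepsin and LAMP counts against 48 h were 2 and 3. Among the called members and the called list genes that met the naming rule above, the sign turned without TMM for Atp6v1d (0.03) and Cd63 (0.09) at d14 against uninjured. Against 48 h it turned for Atp6v0d1 (0.19), Atp6v1c1 (0.09), Atp6v1d (0.03), Ctsl (0.05), Igf2r (0.08), Lamp1 (0.06) and Lamtor2 (0.19). With TMM, Igf2r was at -0.50 and Lamtor2, of the TFEB and lysosomal mTORC1 list, at -0.39 in that comparison. The TMM factors differed between d14 and the other groups, and no value here tells which scaling is nearer to RNA per cell. The V-ATPase count higher at 48 h was 0 with no filter and with 2 groups only, and the count higher at d14 was 2 with DESeq2, with limma voom and with 2 groups only. Cathepsins and LAMPs higher at d14 against 48 h numbered 3 with limma voom and 0 with 2 groups only. The cause of these last changes was not tested.

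Leaving out 1 library at a time gave 0 to 1 V-ATPase genes higher and 1 to 2 lower at 48 h, 1 to 2 higher at d14, and 0 to 3 cathepsins and LAMPs higher at d14 against 48 h. Same-numbered libraries of different groups correlated at -0.127 to 0.019 in their deviations from the group means, and in 2 of 18 cases the same number correlated best. No pairing by number showed in this check, which cannot exclude one because each mean rests on 3 libraries. With a replicate block the genes called over all tested were 3818 in place of 4518 at 48 h, 6615 in place of 7112 at d14 and 4414 in place of 5137 between them. The block left 6 V-ATPase genes lower at d14 against 48 h in place of 7, since Atp6v0d1 (-0.38, adjusted p = 0.0503) was no longer called, and changed no other member count. Depth limited Ctsk and Atp6v0c-ps2 most.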
